A study of Homo sapiens with 9 samples.

Results

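MEC1 cells that had been kept for 14 days in a 3D bioprinted scaffold were compared with MEC1 cells kept for 7 days in the same kind of scaffold. MEC1 is an established cell line from chronic lymphocytic leukemia (CLL), a cancer of mature B lymphocytes, and the scaffold is a printed CELLINK Bioink hydrogel in which the cells are embedded. The comparison used 6 of the 9 bulk RNA-seq samples, 3 at day 7 (3D_7d) and 3 at day 14 (3D_14d). The other 3 samples were MEC1 cells in conventional 2D culture, which entered the fit as a further group and are given below as levels only. All groups are the same untreated line, with no engineered difference between them by label. Every sample title begins with MECPGK, and the paper, which calls the cells MEC1, does not explain the letters PGK. RNA of both 3D groups was extracted in the same way, so the 3D samples differed by label in culture time alone. The paper used TRIzol, DNase and then a ReliaPrep kit for scaffolds, but the ReliaPrep kit without TRIzol for 2D cells. Culture and extraction therefore cannot be told apart where 2D levels are set beside 3D levels. Genes were kept where at least 3 of the 9 samples had a CPM (counts scaled to library size, as usual in RNA-seq) above 1, which left 13463 of the 59050 gene symbols in the table. The labels do not say whether the samples of a group came from separate prints, so the p-values measure the spread between these samples, which may be technical.

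A B cell that is dividing has to copy its genome, build ribosomes and fold the proteins it makes, and these programs are run by gene sets that tend to move together. When amino acids run short or proteins misfold, the transcription factor ATF4 turns on genes for amino acid synthesis and transport. Low oxygen acts through hypoxia-inducible factors on glycolysis and angiogenesis genes, and interferons act on antiviral genes. In lymph nodes CLL cells divide and secrete chemokines that draw in T cells and monocytes, while circulating CLL cells rarely divide. In bulk RNA a change in the level of a gene per cell and a change in the share of cells that express it cannot be told apart.

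At day 14 the genes of DNA replication, homologous recombination, ribosome assembly and the CCT chaperonin were mostly lower than at day 7. Genes of the ATF4 amino acid response, several hypoxia targets and part of the interferon-stimulated genes were higher. Of 12 chemokine ligands 7 were higher and 2, CCL22 among them, were lower. Of the 13463 genes tested, 3785 (28.1%) passed an adjusted p of 0.05 in edgeR's quasi-likelihood test, 1951 of them (14.5%) higher and 1834 (13.6%) lower at day 14. A log2 fold change of at least 1 was reached by 984 of the higher genes (7.31% of all genes tested) and 472 of the lower ones (3.51%). The median log2 fold change was 1.01 among higher and -0.77 among lower genes, against -0.00125 over all genes tested. Counts given for a gene list below are to be read against the 14.5% and 13.6% of all genes tested. The numbers of higher and lower genes depended on single samples: without 3D_7d replicate 2 they were 1193 and 1098, and without 3D_7d replicate 3 they were 1325 and 1092. With the 2D samples left out of the fit they were 1329 and 1124.

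**Figure D1:**
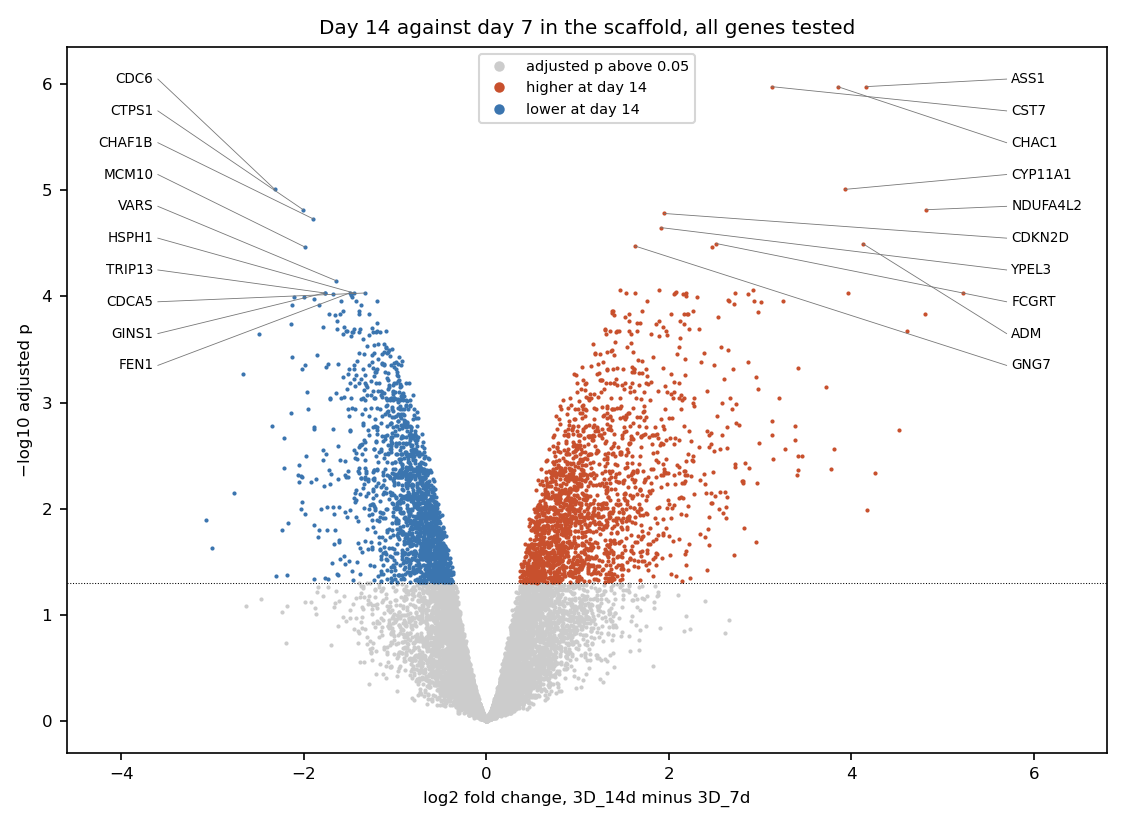
Each point is 1 of the 13463 genes tested, with the log2 fold change (3D_14d minus 3D_7d) on the x axis and −log10 of the adjusted p on the y axis, and the dotted line is an adjusted p of 0.05. The 10 genes with the smallest p in each direction are named, from ASS1 at 4.16 to GNG7 at 1.63 on the right and from CDC6 at -2.32 to CDCA5 at -1.32 on the left.

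The 6 libraries in 3D held 54662799 to 61246772 counts each, so depth hardly differed between them, but the spread at day 14 was wider. The root mean square difference between replicates, in log2 CPM over genes, was 0.482 to 0.578 at day 7. At day 14 it was 0.588 between replicates 2 and 3 but 0.771 and 0.831 for the pairs that held replicate 1. Between 2D replicates it was 0.321 to 0.404, and the fit shares 1 estimate of the spread over all 9 samples. In 3D_14d replicate 1 short genes were high: in the tenth of genes with the shortest exons (18 to 1204 bases) its median lay 0.82 above the day 7 mean on the log2 scale, against 0.20 in replicate 2 and 0.36 in replicate 3. In that bin 29.7% of genes were called higher and 1.86% lower. Beside the lists of short genes (median exon length of 784 to 1958 bases), counts and medians are therefore given also without this sample and with the length trend removed. Its part in them was not tested.

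**Figure D2:**
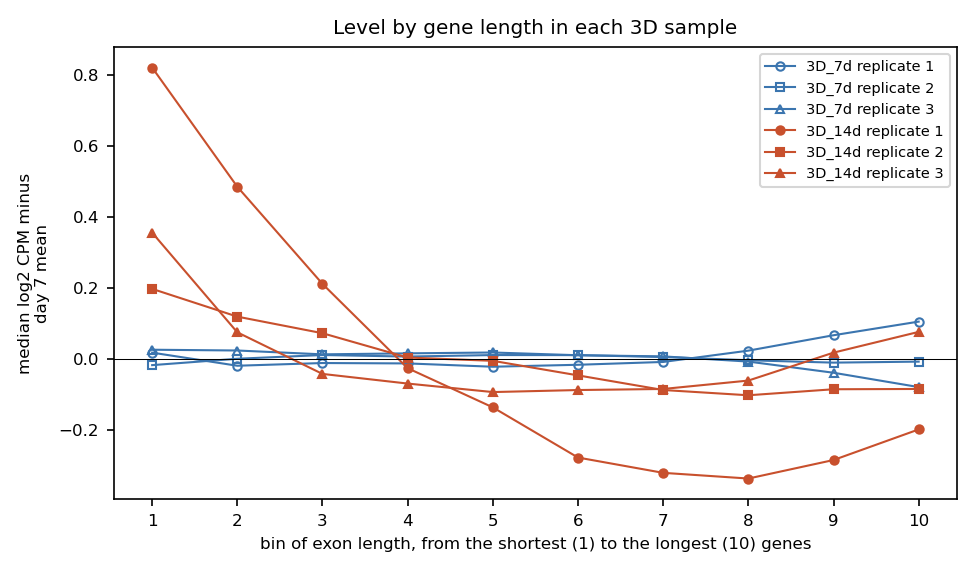
Median log2 CPM minus the day 7 mean (y axis) in 10 equal bins of exon length (x axis), 1 line for each of the 6 samples in 3D. The day 7 samples stay near 0, 3D_14d replicate 1 runs from 0.82 in the shortest bin to -0.34 in the eighth, and the other day 14 samples depart less.

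The samples carried B cell RNA. Of 9 B cell markers 8 were tested, and their summed level was 3850 to 4500 CPM at day 7 and 4590 to 5270 CPM at day 14. Of these 3 rose and 1, MS4A1, fell (1379 to 1670 CPM at day 7, 895 to 1232 CPM at day 14), while CD5 stayed under 1 CPM in all 6 samples in 3D. The defining T cell markers CD3D, CD3E, CD3G, CD4 and CD8A were all under 1 CPM, and the T cell sum of 671 to 715 CPM at day 7 and 742 to 1060 CPM at day 14 came from T cell receptor constant genes. Of 9 myeloid markers 8 were under 1 CPM in every sample in 3D. Their sum was 1.25 to 2.85 CPM at day 7 and 3.94 to 5.17 CPM at day 14, where most of it came from the integrin gene ITGAM. The NK cell sum was 923 to 964 CPM at day 7 and 1170 to 1480 CPM at day 14, carried by the granule protein genes PRF1 and GNLY. NCAM1 and NCR1 were under 1 CPM, but other NK cell genes were detected at low levels. KLRF1 had 0.75 to 1.06 CPM at day 7 and 1.67 to 4.35 CPM at day 14 and was called higher. KLRD1 (2.11 to 2.47 against 3.99 to 6.04 CPM) and NKG7 (0.09 to 0.95 against 0.54 to 1.38 CPM) did not pass. The sums of 7 erythroid markers (1.83 to 2.39 against 3.02 to 5.72 CPM) and 8 stromal and endothelial markers (38.2 to 55.3 against 53.9 to 80.2 CPM, mostly PECAM1) were small. Of the markers tested 2 T cell, 2 NK cell, 1 myeloid and 2 stromal genes rose and none fell, and their part in the results below was not tested.

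Replication transcripts fell between the time points. Of 50 tested DNA replication genes 44 fell and 1 rose, with a median log2 fold change of -1.29 (all genes -0.00125), and 44 were also called lower without 3D_14d replicate 1. CDC6, which loads the replicative helicase at origins, had 106, 116 and 131 CPM at day 7 and 22.4, 28.3 and 20.2 CPM at day 14. The groups lie far apart, and all day 14 samples are also below the 2D mean of 76.8 ± 2.95 CPM (SD, n = 3). CDC6 fell by 2.32 ± 0.16 on the log2 scale (SE, edgeR quasi-likelihood adjusted p = 9.77e-06). CHAF1B, a subunit of the chromatin assembly factor that works behind the fork, went from 59.7, 48.3 and 54.2 CPM to 14.0, 14.3 and 15.3 CPM (log2 fold change -1.90 ± 0.15, edgeR adjusted p = 1.86e-05). Among the other genes with the smallest p were the initiation factor MCM10 (105 to 107 CPM at day 7, 20.1 to 30.3 CPM at day 14), the helicase cofactor GINS1 (25.1 to 27.3 against 6.11 to 8.79 CPM) and the flap nuclease FEN1 (399 to 443 against 128 to 180 CPM). The single list member that rose, RPA3, went from 74.9 to 75.7 CPM to 87.4 to 168 CPM (log2 fold change 0.67, edgeR adjusted p = 0.0288) and did not pass without 3D_14d replicate 1 (adjusted p = 0.0512).

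MCM6, a subunit of the helicase itself, is shown for its promoter because it held the most matches to the E2F motif among called replication genes. E2F factors drive S phase genes. MCM6 fell from 166, 183 and 185 CPM to 36.6, 66.0 and 59.1 CPM (log2 fold change -1.73, edgeR adjusted p = 0.000145). The 250 bases before its RefSeq start, at chr2:135876444-135876693 on the minus strand (GRCh38.p14), are printed 5′ to 3′ on the gene's strand with the matches in capitals.
MCM6: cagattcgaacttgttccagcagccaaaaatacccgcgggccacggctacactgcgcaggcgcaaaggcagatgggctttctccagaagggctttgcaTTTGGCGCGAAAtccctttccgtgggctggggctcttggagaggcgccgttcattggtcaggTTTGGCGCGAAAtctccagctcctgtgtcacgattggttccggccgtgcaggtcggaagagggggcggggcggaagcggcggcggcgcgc
The letters searched were TTTCGCGC and TTTGGCGC on both strands, and each capital stretch holds 2 overlapping matches, 4 in all. Of the 42 replication genes with a RefSeq promoter, 6 held a match (14.3%), as did 4 of 18 genes of the G1 to S list (22.2%) and 158 of 9441 tested genes with a promoter (1.67%). A match is a description of the letters and not a measured binding site. Both lists hold known targets of E2F factors, so their motif shares do not bear on the change at day 14.

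Most repair genes fell, as did part of the G1 to S genes. In the homologous recombination and Fanconi list 18 of 23 genes fell and none rose (median -1.13, and 20 lower without 3D_14d replicate 1), among them the nuclease EXO1, which went from 51.0 to 64.9 CPM to 9.28 to 18.2 CPM. Of 24 tested G1 to S cyclins, kinases, E2F factors and inhibitors 10 fell and 1 rose (median -0.36). The median was -0.14 without 3D_7d replicate 1 and -0.56 without 3D_14d replicate 3. E2F2, an activating E2F factor, had 31.3, 26.0 and 31.03 CPM at day 7 and 12.9, 8.50 and 10.2 CPM at day 14 (log2 fold change -1.48, edgeR adjusted p = 0.000238). RBL1, a pocket protein that restrains E2F, fell as well (log2 fold change -1.76, adjusted p = 0.000463). The member that rose was CDKN2D, which encodes the CDK4 and CDK6 inhibitor p19 and had 18.4 to 20.5 CPM at day 7 and 64.3 to 84.3 CPM at day 14. The 2D mean of 60.3 CPM lay between, just below the lowest day 14 sample.

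Part of the mitosis genes fell, and most of the others did not pass. Of 59 tested 24 fell, 1 rose and 34 did not pass (median -0.52, and -0.34 without 3D_7d replicate 1). A log2 fold change above 0 was seen in 8, and 14 to 30 fell with each sample left out in turn. CDCA5, which protects sister chromatid cohesion, had 82.3 to 88.9 CPM at day 7 and 30.1 to 36.9 CPM at day 14 (log2 fold change -1.32, edgeR adjusted p = 9.27e-05), and the kinetochore gene ZWINT had 245 to 309 against 100.4 to 122.7 CPM. PTTG1, encoding securin, rose from 102 to 111 CPM to 182 to 370 CPM. KIF11, ECT2 and BUB1, named here after their values were seen, were called lower (log2 fold changes -1.05, -0.91 and -0.59). The late mitotic genes CCNB1, PLK1 and CENPA, also named afterwards, overlapped between the groups. CCNB1 had 79.0 to 99.2 CPM at day 7 and 62.9 to 87.9 CPM at day 14 (edgeR adjusted p = 0.499), PLK1 78.2 to 128 against 77.1 to 110 CPM (0.679), and CENPA 13.8 to 24.8 against 19.1 to 21.0 CPM (0.792).

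**Figure D3:**
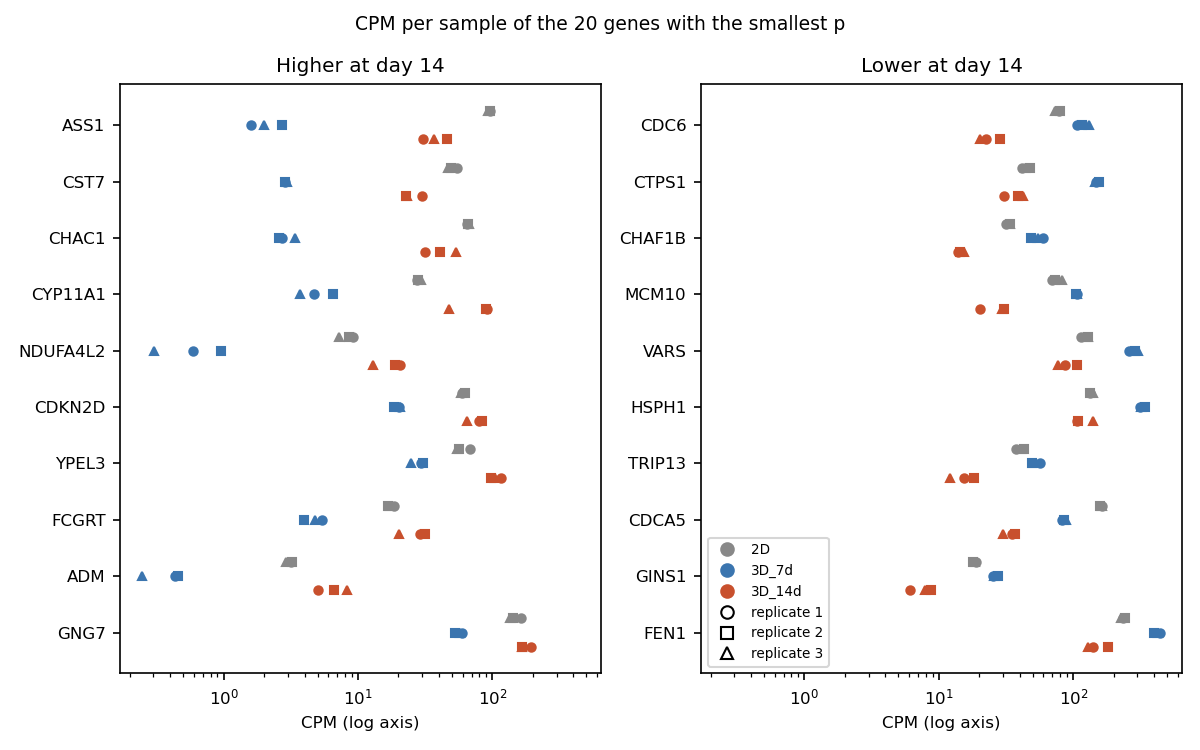
CPM on a log axis in each of the 9 samples for the 10 genes with the smallest p that were higher (left) and lower (right) at day 14; colours mark the groups and shapes the replicates. The rule that chose the 20 genes required groups that do not overlap, and for ASS1 the order is day 7 (at most 2.72 CPM), day 14 (at most 45.8) and 2D (at least 93.0).

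The ATF4 amino acid response moved the other way. Of 28 tested members 20 rose and 1 fell, with a median log2 fold change of 1.405, and without 3D_14d replicate 1 the counts were 22 and 1. ASS1, the argininosuccinate synthase that makes the precursor of arginine, had 1.59, 2.72 and 2.00 CPM at day 7 and 30.2, 45.8 and 36.8 CPM at day 14. The groups do not overlap, and the 2D level was higher than both at 95.2 ± 1.87 CPM (SD, n = 3). ASS1 rose by 4.16 ± 0.23 on the log2 scale (SE, edgeR adjusted p = 1.05e-06). It lies at chr9:130444929-130501274 on the plus strand (GRCh38). CHAC1, a glutathione-degrading enzyme, had 2.72, 2.58 and 3.40 CPM at day 7 and 31.3, 40.9 and 53.2 CPM at day 14 (log2 fold change 3.85 ± 0.22, edgeR adjusted p = 1.05e-06), with a 2D level of 65.9 ± 1.47 CPM.

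ATF4 itself, the stress factor DDIT3 and PHGDH were also higher, and are named after their values were seen. ATF4 had 202, 208 and 192 CPM at day 7 and 632, 548 and 476 CPM at day 14 (log2 fold change 1.46 ± 0.14, edgeR adjusted p = 8.68e-05). DDIT3 had 39.8 to 43.7 CPM at day 7 and 84.8 to 132 CPM at day 14. The member that fell was ALDH18A1, an enzyme of proline synthesis (271 to 331 CPM against 103 to 190 CPM). PHGDH, the entry enzyme of serine synthesis, was scattered at day 7 at 0.03, 1.70 and 1.24 CPM and reached 7.04, 10.8 and 5.29 CPM at day 14.

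CHAC1 was the called ATF4 list member with the smallest p among those holding the C/EBP-ATF motif TGATGNAA in the 250 bases before their start. The 30 bases around its match lie at chr15:40953251-40953280 on the plus strand (GRCh38.p14), with the match, on the opposite strand, in capitals.
CHAC1: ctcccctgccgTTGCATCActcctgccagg
The deposited exons of CHAC1 begin upstream of this RefSeq start, so just the stretch around the match is given. Of 24 list members with a promoter 4 held the motif on either strand (16.7%), against 1.45% of the 9441 tested genes with a promoter.

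Amino acid transporters and tRNA synthetases did not move as single groups. Of 13 transporters 5 rose and 3 fell (median 0.27). Without 3D_14d replicate 1 the counts were 6 and 3 (median 0.45), and without 3D_14d replicate 3 the median was 0.11. SLC7A11, the cystine carrier, had 1.33 to 3.76 CPM at day 7 and 6.73 to 13.5 CPM at day 14, and the glycine carrier SLC6A9 0 to 0.47 against 2.02 to 3.56 CPM. The lysosomal carrier SLC36A1 went from 10.04 to 12.8 CPM to 4.30 to 5.54 CPM. Of 20 cytosolic tRNA synthetases 2 rose and 7 fell (median -0.34), against 5 and 7 without 3D_14d replicate 1 (median -0.15). The valine enzyme VARS fell from 261, 286 and 301 CPM to 86.5, 107 and 77.1 CPM (log2 fold change -1.65, edgeR adjusted p = 7.10e-05). The serine enzyme SARS rose from 271 to 349 CPM to 486 to 538 CPM. AARS, the alanine enzyme, passed (adjusted p = 0.0397) with groups that overlapped, since 3D_14d replicate 1 had 267 CPM among day 7 samples of 244 to 282 CPM.

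**Figure D4:**
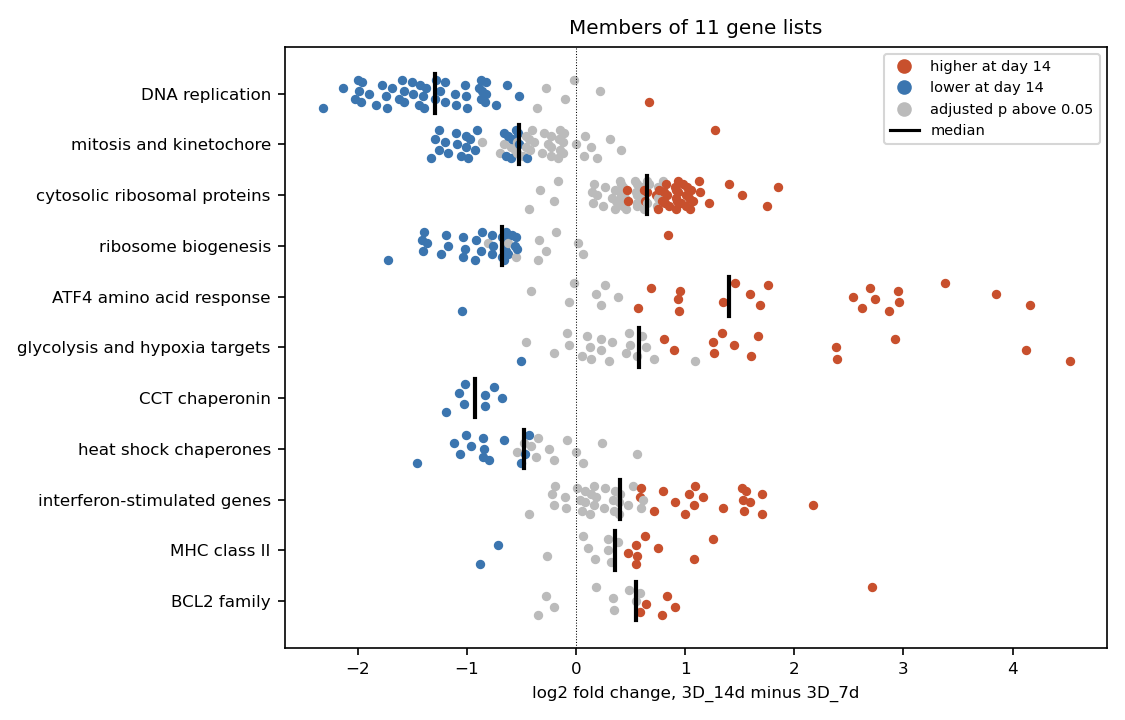
Each point is a tested member of 1 of 11 gene lists (rows), placed by its log2 fold change (x axis, 3D_14d minus 3D_7d) and coloured by its call; the black bar is the list median. The replication list lies mostly left of 0 with a median of -1.29, the ATF4 list mostly right with a median of 1.405, and all 8 CCT members are coloured as lower.

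Several hypoxia targets rose. Of 34 members of the combined list 13 rose and 1 fell (median 0.58), and without 3D_14d replicate 1 the counts were 17 and 0 (median 0.86), while without 3D_14d replicate 2 the median was 0.285. ADM, which encodes the vasodilator peptide adrenomedullin, had 0.43, 0.46 and 0.25 CPM at day 7 and 5.06, 6.64 and 8.26 CPM at day 14 (log2 fold change 4.12 ± 0.35, edgeR adjusted p = 3.17e-05). MXI1, an antagonist of MYC, had 2.20 to 4.05 CPM at day 7 and 15.9 to 27.1 CPM at day 14 (log2 fold change 2.92, adjusted p = 8.68e-05). VEGFA, the angiogenic factor, named after its values were seen, had 9.15, 18.7 and 21.5 CPM at day 7 and 54.3, 118 and 85.5 CPM at day 14. The glycolytic enzymes LDHA and PGK1, also named afterwards, overlapped between the groups. LDHA had 1464 to 2655 CPM against 1793 to 3257 CPM (edgeR adjusted p = 0.781), and PGK1 had 1958 to 2812 CPM against 2127 to 3674 CPM (0.406). The member called lower, PFKM, had 52.0 to 58.3 CPM at day 7 and 32.8 to 48.0 CPM at day 14 and did not pass without 3D_14d replicate 1 (adjusted p = 0.0642). NDUFA4L2, a mitochondrial protein known as a hypoxia target but no member of the list, had 0.59, 0.95 and 0.30 CPM at day 7 and 20.4, 18.9 and 13.0 CPM at day 14.

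EGLN1, the prolyl hydroxylase that senses oxygen, is the called member shown for the hypoxia motif ACGTGC. It had 14.2, 8.93 and 15.8 CPM at day 7 and 24.6, 61.3 and 32.3 CPM at day 14 (log2 fold change 1.603, edgeR adjusted p = 0.00466). The 250 bases before its start lie at chr1:231422288-231422537 on the minus strand (GRCh38.p14), with the match in capitals.
EGLN1: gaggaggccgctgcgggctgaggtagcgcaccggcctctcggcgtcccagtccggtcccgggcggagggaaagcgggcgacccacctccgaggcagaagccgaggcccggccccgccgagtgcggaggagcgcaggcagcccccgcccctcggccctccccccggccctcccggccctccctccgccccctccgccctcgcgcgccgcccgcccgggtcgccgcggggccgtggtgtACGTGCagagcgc
Of 31 list members with a promoter 9 held these letters on either strand (29%), against 7.73% of all tested genes with a promoter.

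Most genes for making ribosomes fell, while about as many ribosomal protein genes rose as did not pass. Of 40 tested ribosome biogenesis genes 30 fell and 1 rose (median -0.68), and without 3D_14d replicate 1 the counts were 31 and 1. NOLC1, a nucleolar phosphoprotein that shuttles snoRNPs, had 293, 341 and 341 CPM at day 7 and 117, 157 and 152 CPM at day 14 (log2 fold change -1.19, edgeR adjusted p = 0.000279). NOP14, a factor of small subunit maturation that shares 13.0% of its exon bases with other genes, fell from 119 to 135 CPM to 38.8 to 55.6 CPM. NOP10, a small H/ACA snoRNP protein, was the member that rose.

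Of 76 cytosolic ribosomal protein genes 37 rose and none fell (median 0.65). Their median exon length was 1391 bases, and the rise was uneven between samples: the list median stood at 1.19, 0.18 and 0.49 above the day 7 mean in 3D_14d replicates 1, 2 and 3. Without replicate 1 the counts were 25 and 2 (median 0.35), with the length trend removed 28 and 1 (0.32), and with both 20 and 4 (0.21). With each sample left out in turn 18 to 55 were called higher. RPS27 had 79.2 to 99.1 CPM at day 7 and 431, 159 and 334 CPM at day 14, and RPL34 had 71.9 to 87.6 against 300, 119 and 254 CPM. In both, replicate 2 was the lowest day 14 sample. Ribosomal protein genes have many processed pseudogenes, so their reads may be split between copies.

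The nuclear respiratory chain list (66 genes, median length 1591 bases) was uneven in the same samples, with 15 higher and 3 lower (median 0.39), 9 and 6 without 3D_14d replicate 1 (0.12), 11 and 6 with the length trend removed (0.10), and 4 and 9 with both (-0.01). With each sample left out in turn 5 to 38 were called higher. Of 13 mRNAs of the mitochondrial genome (median length 784 bases) 2 rose and none fell (median 0.12), and the direction of this list depended on the processing. With the length trend removed none rose and 2 fell (median -0.22), without 3D_14d replicate 1 the counts were 1 and 0 (0.14), with both 0 and 1 (-0.08), and without 3D_14d replicate 3 the median was -0.17. MT-ND3 passed with overlapping groups (8.80 to 9.29 CPM against 28.2, 8.43 and 34.0 CPM), and MT-CO2 did not pass without 3D_14d replicate 1 (adjusted p = 0.111). Of 71 mitochondrial ribosomal protein genes (median length 1648 bases) 3 rose and 7 fell (median -0.00375). The counts were 1 and 18 without 3D_14d replicate 1 (-0.19), 0 and 22 with the length trend removed (-0.20), and 0 and 29 with both (-0.34). Of 17 snoRNA host genes 9 rose and none fell (median 0.51), with 6 and 0 without 3D_14d replicate 1 (0.295), and ZFAS1 had 7.20 to 9.68 CPM against 29.3, 12.8 and 33.2 CPM. Of 38 translation factors 11 fell and 1 rose (median -0.23), with the scaffold factor EIF4G1 going from 349 to 387 CPM to 179 to 224 CPM and EIF1, which scans for the start codon, from 471 to 532 CPM to 716 to 1089 CPM.

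Chaperone genes fell or did not pass. All 8 subunits of the CCT chaperonin, which folds actin and tubulin, were called lower (median -0.92), also without 3D_14d replicate 1 and with the length trend removed. CCT6A had 768, 948 and 891 CPM at day 7 and 422, 366 and 350 CPM at day 14 (log2 fold change -1.19, edgeR adjusted p = 0.000179), and CCT2 had 393 to 499 against 223 to 235 CPM. Of 25 heat shock chaperone genes 13 fell and none rose (median -0.47). HSPH1, a nucleotide exchange factor for HSP70, had 315, 344 and 317 CPM at day 7 and 107, 109 and 141 CPM at day 14 (log2 fold change -1.45, adjusted p = 9.27e-05). The mitochondrial chaperonin HSPD1 had 512 to 628 CPM at day 7 and 239 to 302 CPM at day 14.

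In the endoplasmic reticulum list 6 of 31 genes rose and 8 fell (median -0.14), against 6 and 11 without 3D_14d replicate 1 (median -0.07). ERN1, which encodes the stress sensor IRE1, rose from 19.4 to 26.3 CPM to 48.4 to 55.9 CPM, while the chaperone HSPA5 fell from 2226 to 3077 CPM to 1427 to 1824 CPM. Of 31 proteasome subunits (median length 1795 bases) 5 fell (median -0.09). The number was 11 without 3D_14d replicate 1 (-0.29), 11 with the length trend removed (-0.29) and 17 with both (-0.37). PSMD1 and PSMD2 of the regulatory particle had log2 fold changes of -1.25 and -1.03. Of 33 cholesterol and fatty acid synthesis genes 12 fell and 1 rose (median -0.24). Of 21 NRF2 antioxidant genes 3 rose and 4 fell (median -0.01, and -0.28 with the length trend removed), the latter including the pentose phosphate enzymes PGD and TKT. Of 30 lysosome and autophagy genes 7 rose and none fell (median 0.20), with the lysosomal cholesterol carrier NPC2 at 41.5 to 42.4 CPM at day 7 and 86.8 to 141 CPM at day 14. CTPS1, which makes CTP and belongs to no list, had 147, 155 and 145 CPM at day 7 and 30.4, 38.7 and 42.1 CPM at day 14 (log2 fold change -2.01, edgeR adjusted p = 1.52e-05).

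**Figure D5:**
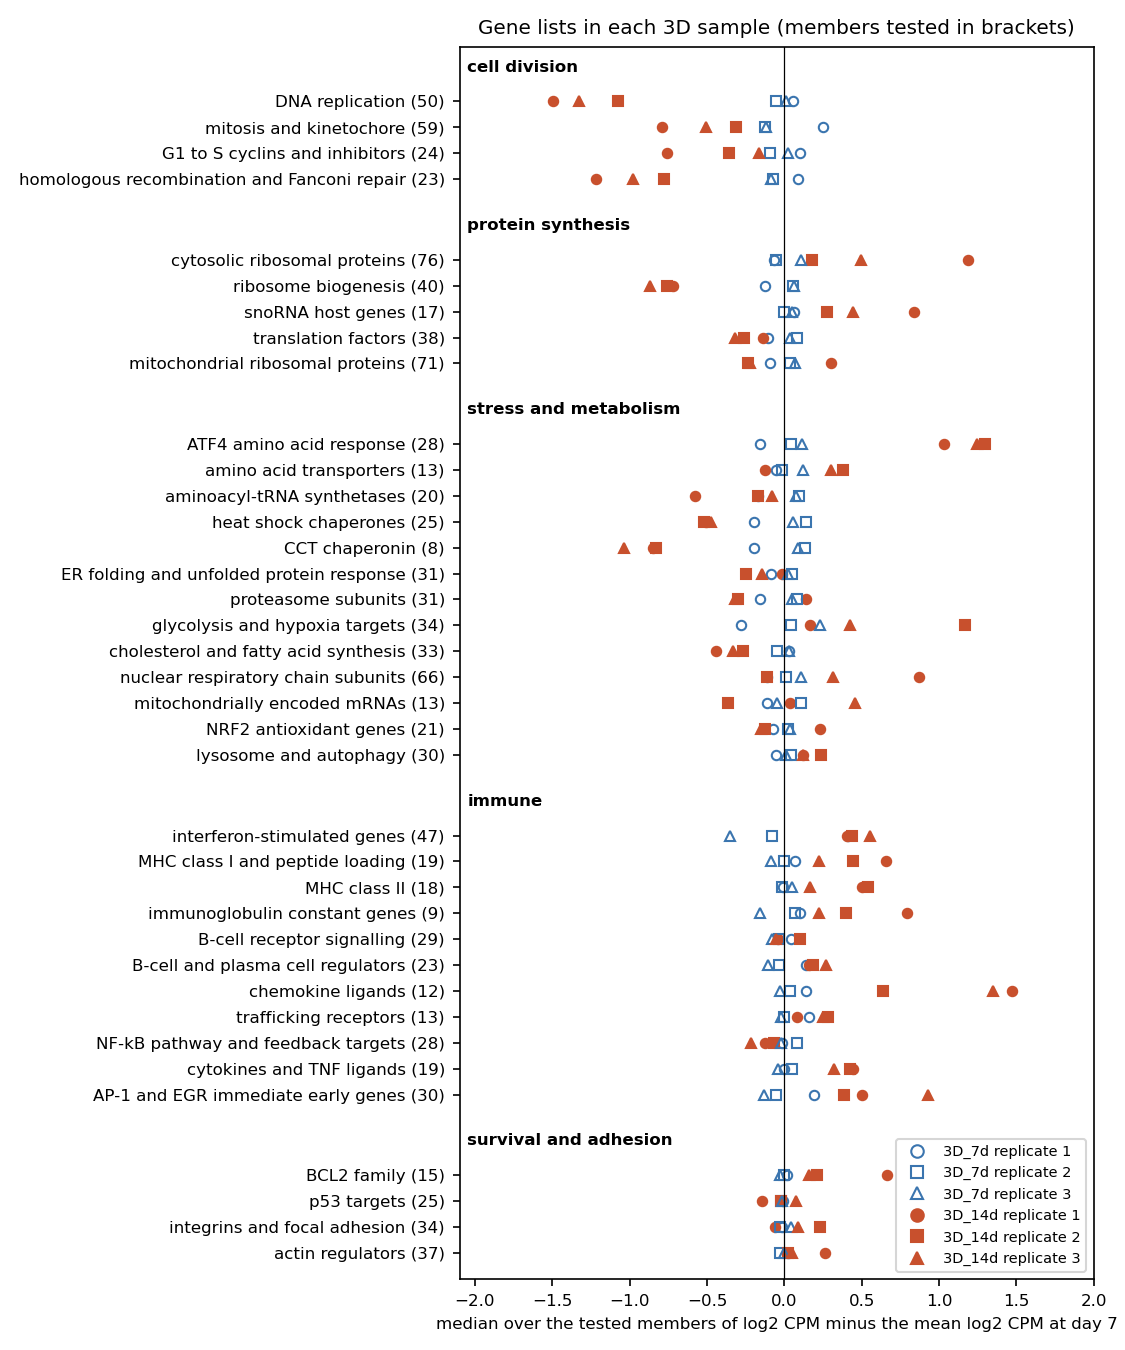
For each of the 37 gene lists (rows, members tested in brackets) and each of the 6 samples in 3D, the median over members of log2 CPM minus the day 7 mean (x axis); open blue symbols are day 7 and filled orange symbols day 14, with shapes for replicates. The day 14 samples lie at -1.07 to -1.496 for DNA replication and at 1.03 to 1.30 for the ATF4 list, while for ribosomal proteins they spread from 0.18 to 1.19.

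Interferon-stimulated genes rose in part. Of 47 tested 19 rose and none fell (median 0.41), with 19 and 0 also without 3D_14d replicate 1. IFITM1, a membrane protein that blocks virus entry, had 1139, 759 and 691 CPM at day 7 and 3713, 2143 and 2567 CPM at day 14 (log2 fold change 1.70 ± 0.23, edgeR adjusted p = 0.000403). Its relative IFITM2 had 363 to 447 against 939 to 1540 CPM. In IFITM1 and IFITM2 alike replicate 1 was the highest sample on both days. ISG15, the ubiquitin-like modifier, named after its values were seen, had 634, 326 and 265 CPM at day 7 and 1881, 815 and 896 CPM at day 14. The day 7 samples disagreed for this list: leaving out 3D_7d replicate 1 raised its median to 0.81 and leaving out 3D_7d replicate 3 lowered it to 0.30, and 13 to 24 members were called higher with each sample left out in turn.

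HERC5, the ligase that attaches ISG15 to proteins, is the called list member shown for the interferon response motif (a pair of GAAA blocks 2 bases apart). It had 24.6, 15.1 and 12.6 CPM at day 7 and 29.1, 33.9 and 34.9 CPM at day 14 (log2 fold change 0.91, edgeR adjusted p = 0.0102). The 250 bases before its start lie at chr4:88456869-88457118 on the plus strand (GRCh38.p14), with matches, here on the opposite strand and partly overlapping, in capitals.
HERC5: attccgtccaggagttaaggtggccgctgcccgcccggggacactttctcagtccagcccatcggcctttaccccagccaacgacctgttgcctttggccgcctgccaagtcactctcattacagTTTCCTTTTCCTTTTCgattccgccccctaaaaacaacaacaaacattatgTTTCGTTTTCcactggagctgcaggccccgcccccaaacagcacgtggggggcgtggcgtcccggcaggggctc
Of 35 list members with a promoter 20 held the motif on either strand (57.1%), against 2.63% of all tested genes with a promoter. Some holders were called, such as ISG15, and others were not, such as IFIH1 and OAS3, both named after their values were seen. The ATF4, hypoxia and interferon lists also name genes known to respond. Their motif shares, too, do not bear on the change at day 14.

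Part of the antigen presentation genes rose, and 2 regulators of MHC class II fell. Of 19 MHC class I and peptide loading genes (median length 1958 bases) 9 rose and none fell (median 0.36), against 8 and 1 without 3D_14d replicate 1 (0.28), 7 and 1 with the length trend removed (0.22), and 8 and 1 with both (0.25). HLA-E, the ligand of the NK receptor NKG2A, had 1434 to 1803 CPM at day 7 and 2312 to 3413 CPM at day 14 (log2 fold change 0.88, edgeR adjusted p = 0.00241). Of 18 MHC class II genes (median length 1731 bases) 8 rose and 2 fell (median 0.36), against 7 and 2 without 3D_14d replicate 1 (0.40), 5 and 3 with the length trend removed (0.21), and 7 and 3 with both (0.31). HLA-DPB1 had 332 to 353 against 551 to 945 CPM (log2 fold change 1.08, adjusted p = 0.00134). The genes that fell were the class II transactivator CIITA (19.3% of exon bases shared), with 189, 166 and 218 CPM at day 7 and 66.1, 136 and 110 CPM at day 14, and its partner RFX5, with 188 to 200 against 91.2 to 136 CPM. Reads of HLA genes may be shared between similar copies.

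Chemokine genes went both ways. Of 12 ligands tested (median length 1201 bases) 7 rose and 2 fell (median 1.19). The counts were 8 and 2 without 3D_14d replicate 1 (median 1.05), with the length trend removed (0.67) and with both (0.745). CCL5, which attracts T cells and monocytes, had 55.0, 72.2 and 79.2 CPM at day 7 and 245, 239 and 282 CPM at day 14 (log2 fold change 1.89 ± 0.18, edgeR adjusted p = 8.68e-05). CCL4L2, a near-identical copy of CCL4 so that reads may be shared, had 26.4 to 33.9 against 78.7 to 104 CPM. CCL22, which attracts regulatory T cells, ran in the opposite direction, with 515, 828 and 556 CPM at day 7 and 80.7, 167 and 185 CPM at day 14. It fell by 2.13 ± 0.28 on the log2 scale (SE, adjusted p = 0.000372), and the 2D mean was 55.4 ± 8.05 CPM (SD, n = 3). CXCL10 was near the detection limit (0.80 to 1.57 CPM against 0 to 0.52 CPM) and passed in 2 of 9 fits that each left out 1 sample.

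Of 13 trafficking receptors 3 rose, 1 fell and 9 did not pass (median 0.28, and 0.12 without 3D_14d replicate 2). Over all genes tested 14.5% were called higher and 13.6% lower. The sphingosine phosphate receptor S1PR4 had 233 to 288 CPM at day 7 and 359 to 542 CPM at day 14. CCR7, which guides B cells to lymph nodes, passed as lower (adjusted p = 0.0169) with overlapping groups of 469, 970 and 1011 CPM against 364, 543 and 386 CPM. CXCR3 had 215, 189 and 168 CPM at day 7 and 212, 176 and 157 CPM at day 14 (edgeR adjusted p = 0.752).

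Both signalling chains of the B cell receptor rose, while most genes of its list did not pass. Of 29 B cell receptor genes 6 rose, 1 fell and 22 did not pass, against 14.5% higher and 13.6% lower over all genes tested. The list median was -0.01 and ran from -0.085 to 0.08 with each sample left out in turn. CD79A, a signalling chain of the receptor, had 713, 597 and 580 CPM at day 7 and 1619, 1185 and 1130 CPM at day 14 (log2 fold change 1.06, edgeR adjusted p = 0.00106), and its partner CD79B, with 22.6% of exon bases shared, had 122 to 177 against 281 to 475 CPM. The gene that fell was RASGRP3, an activator of RAS. Of 9 tested immunoglobulin constant genes, JCHAIN included (median length 1536 bases), 2 rose and none fell (median 0.48). The number was 1 without 3D_14d replicate 1 (0.22), with the length trend removed (0.25) and with both (0.17). The genes that rose were IGHD with 149 to 228 CPM against 320 to 442 CPM and JCHAIN with 1827 to 2004 CPM against 2120 to 3299 CPM, and JCHAIN did not pass without 3D_14d replicate 1 (adjusted p = 0.0773).

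Of 23 regulators of B and plasma cells 5 rose, 3 fell and 15 did not pass (median 0.21, and 0.34 without 3D_7d replicate 1). Over all genes tested 14.5% were called higher and 13.6% lower. IRF4, a factor of activated B and plasma cells, had 642, 853 and 930 CPM at day 7 and 301, 409 and 470 CPM at day 14 (log2 fold change -1.04, edgeR adjusted p = 0.00213), and the lymphoid factor IKZF1 had 77.4 to 79.2 against 42.8 to 54.6 CPM. CD27, a memory B cell receptor with 21.4% of exon bases shared, rose from 377 to 446 CPM to 698 to 987 CPM.

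Signalling targets were mixed. Of 28 NF-kB genes 2 rose and 7 fell (median -0.06, and -0.11 without 3D_14d replicate 2), with the adaptor TRAF1 at 160 to 174 CPM at day 7 and 69.9 to 106 CPM at day 14 and the kinase gene MAP3K14 (18.2% of exon bases shared) also lower. BCL3, an atypical IkB protein, had 18.0, 8.69 and 10.3 CPM against 22.6, 31.4 and 54.9 CPM. Of 30 AP-1 and EGR immediate early genes 14 rose and 2 fell (median 0.67, and 0.44 without 3D_14d replicate 3). Among its FOS, JUN and EGR members, named after their values were seen, JUND and FOSL2 rose and EGR2 fell. FOS, FOSB, FOSL1, JUN, JUNB, EGR1, EGR3 and EGR4 did not pass. The phosphatase DUSP2, which acts on MAP kinases, had 164, 78.2 and 83.0 CPM at day 7 and 384, 467 and 548 CPM at day 14 (log2 fold change 2.10, edgeR adjusted p = 0.000648), while the related DUSP4 had 62.3 to 75.4 against 20.2 to 40.4 CPM. Of 19 cytokines and TNF family ligands (median length 1684 bases) 6 rose and 1 fell (median 0.53). The counts were 6 and 1 without 3D_14d replicate 1 (0.33), 7 and 3 with the length trend removed (0.39) and 6 and 2 with both (0.37), and without 3D_14d replicate 3 the median was 0.35. CD70 rose from 353 to 399 CPM to 664 to 1029 CPM and TNF fell from 116 to 153 CPM to 77.2 to 89.1 CPM.

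Part of the BCL2 family rose, with members from both sides of the balance between survival and death. Of 15 members 6 rose and none fell (median 0.55, 0.23 without 3D_14d replicate 1 and 0.295 with the length trend removed). BBC3, encoding the pro-apoptotic PUMA, had 2.72, 3.23 and 4.98 CPM at day 7 and 23.0, 16.6 and 32.1 CPM at day 14 (log2 fold change 2.71 ± 0.29, edgeR adjusted p = 0.000117). The anti-apoptotic BCL2 had 53.99, 51.4 and 43.1 CPM at day 7 and 62.5, 89.0 and 106 CPM at day 14 (log2 fold change 0.79 ± 0.18, adjusted p = 0.00717), with 146 CPM on average in 2D. BCL2A1, also anti-apoptotic, had 25.8 to 29.4 against 42.0 to 68.1 CPM. BAX, a pore-forming effector, had 138, 126 and 132 CPM at day 7 and 205, 148 and 147 CPM at day 14 and did not pass (log2 fold change 0.34 ± 0.16, adjusted p = 0.125).

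Of 25 p53 targets 2 rose and 2 fell (median -0.08, and 0.03 without 3D_14d replicate 1), BBC3 and SESN2 against AEN and PLK3. The kinase gene PIM3 rose from 106, 75.8 and 92.5 CPM to 151, 217 and 190 CPM (log2 fold change 1.02 ± 0.19, edgeR adjusted p = 0.0025). MYC overlapped, with 74.8, 96.5 and 108 CPM at day 7 and 76.2, 128 and 119 CPM at day 14 (adjusted p = 0.439), and passed without 3D_14d replicate 1 (0.0462).

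Few adhesion genes passed, and cytoskeleton genes went both ways. Of 34 integrin and focal adhesion genes 1 rose and 2 fell (median 0.06), against 3 and 2 without 3D_14d replicate 1 (0.17), and the median was -0.05 without 3D_14d replicate 2. The genes that fell were FLNA, which crosslinks actin (782 to 816 against 322 to 530 CPM), and the LFA-1 chain gene ITGAL (51.4 to 54.9 against 23.8 to 31.6 CPM). Of 37 actin regulators 8 rose and 7 fell (median 0.14). TMSB10, a short actin monomer binder, had 539 to 680 CPM at day 7 and 2675, 1061 and 1726 CPM at day 14, and MYH9, non-muscle myosin, had 661 to 726 against 362 to 477 CPM. HCLS1, a hematopoietic cortactin relative, had 665, 630 and 636 CPM at day 7 and 476, 560 and 501 CPM at day 14. Its groups did not overlap but it did not pass (log2 fold change -0.33 ± 0.13, edgeR adjusted p = 0.0695).

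Further genes with the smallest p lay outside the lists. CST7, the inhibitor cystatin F, had 2.87, 2.85 and 2.97 CPM at day 7 and 29.9, 22.6 and 23.3 CPM at day 14 (log2 fold change 3.12 ± 0.18, edgeR adjusted p = 1.05e-06). CYP11A1, the first enzyme of steroid synthesis, which shares 27.8% of its exon bases with other genes, had 3.73 to 6.52 against 47.7 to 90.7 CPM. YPEL3, a zinc-binding protein linked to growth arrest, with 10.1% of exon bases shared, had 24.7 to 30.4 against 98.0 to 115 CPM. FCGRT, the neonatal Fc receptor, had 3.96 to 5.36 against 20.2 to 31.6 CPM, and the G protein subunit gene GNG7 had 53.1 to 59.6 against 165 to 194 CPM. Among the lower genes TRIP13, an ATPase of the spindle checkpoint, had 48.9 to 56.9 against 12 to 18.3 CPM. Groups that do not overlap were part of the rule that chose these genes. Over all genes tested the groups did not overlap for 2543 genes on the higher side (18.9%) and 2754 on the lower side (20.5%).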

How the data were processed

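RNA of MEC1 cells was sequenced in 9 libraries, 3 each of 2D, 3D_7d and 3D_14d, made from low-input RNA by full-length cDNA amplification. The authors deposited raw counts per gene symbol: reads were trimmed (Trimmomatic 0.39), aligned to GRCh38 with GENCODE annotation (STAR 2.5.3a) and assigned to genes (featureCounts 1.6.4). The strand setting and the handling of reads with several alignments are not given in the sources used here, so overlapping and near-identical genes may share reads. Full-length cDNA counts scale with gene length, and levels were therefore compared within genes.

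The deposited counts were tested with edgeR 4.0.16 (R 4.3.3; TMM factors, quasi-likelihood test, two-sided, all 9 samples, 1 mean per group, contrast 3D_14d minus 3D_7d) on genes with CPM above 1 in at least 3 samples, with Benjamini-Hochberg adjustment over all 13463 and a threshold of 0.05. CPM use TMM-scaled totals, ± after a log2 fold change is its standard error (the fold change divided by the square root of F), and per-sample log2 CPM use a prior count of 2. An exact permutation test of 3 against 3 samples cannot go below p = 0.1. Counts rest on 54662799 to 85968686 reads per library. The fit was tried on simulated data with 200 changed genes. There edgeR recovered 72% of them and 4.64% of its calls were false, against 79.5% and 13.6% for DESeq2. The simulation gave a gene the same spread in all groups, so it did not cover the wider spread at day 14.

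The 37 gene lists and the members compared were chosen with earlier results of these data known; no list was tested as a set. Genes were named by rule: the 10 smallest p in each direction (fold change of at least 1 in log2, groups not overlapping), up to 2 per list and direction by p, and 9 genes the study names for these cells; others are marked where they appear, and a few that the rule names are not reported here. A promoter was shown for the called list member with most motif matches, then smallest p, whose window lay outside its deposited exons where any did; sequences are from RefSeq (GRCh38.p14, 9441 of 13463 genes matched by symbol). Alternatives were other scalings, filters, DESeq2 1.42.0, the 6 samples in 3D alone, a replicate block, removal of a gene length trend by loess, and each sample left out; leaving out 3D_14d replicate 1 with the length trend removed was added after seeing the data.

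No replicate number pairs the samples by label, and deviations of same-numbered 3D samples from their group means correlated at -0.0157, -0.00522 and -0.0952.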

Additional observations from a re-analysis of the deposited data

How the results depend on the processing

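Of 129 named genes 123 passed the threshold, and 98 passed under all 20 settings. Of the 37 list medians 30 kept their sign throughout. The higher genes numbered 1193 to 2187 and the lower genes 1092 to 2141 when each sample was left out in turn. With the 6 samples in 3D alone they numbered 1329 and 1124, and DESeq2's Wald test called 2372 and 2133. A log2 fold change of at least 1 left 984 and 472. With the replicate block the counts were 1818 and 1865; the labels give same-numbered samples no shared origin, so this block is a statistical alternative and not a pairing. Scaling by total counts alone gave 1736 and 1923, and no scaling moved the median of all genes by over 0.1.

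List medians moved by more than the spread between replicates in 62 of 740 values, and the cause was not tested beyond what each setting removes. With the length trend removed, and then with the replicate block as well, the medians were -0.8068 and -0.8116 for ribosome biogenesis, 1.255 and 1.254 for ATF4, -0.2244 and -0.2647 for mitochondrially encoded mRNAs, -0.2834 and -0.2938 for NRF2, 0.2722 and 0.2644 for lysosome, 0.09849 and 0.09682 for B-cell receptor, 0.6737 and 0.6631 for chemokines, -0.145 and -0.1473 for NF-kB, 0.3942 and 0.3854 for cytokines, and 0.295 and 0.2714 for the BCL2 family. The block with the length trend also gave 0.2062 for MHC class II and 0.2473 for immunoglobulin genes, and no filter gave 0.4703 for cytokines.

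Without 3D_14d replicate 1 and with the length trend removed, the medians were -0.8933 for recombination, 0.211 for ribosomal proteins, -0.7813 for ribosome biogenesis, -0.336 for mitochondrial ribosomal proteins, 1.24 for ATF4, 0.5407 for transporters, -0.08115 for tRNA synthetases, -0.3662 for the proteasome, -0.1502 for cholesterol, -0.01468 for the respiratory chain, -0.2139 for NRF2, 0.3181 for lysosome, 0.1714 for immunoglobulin genes, 0.1035 for B-cell receptor, 0.745 for chemokines, 0.3671 for cytokines, 0.07022 for the BCL2 family, 0.06964 for p53 targets and 0.2214 for integrins.

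With each sample left out in turn, the medians ran from -1.486 to -1.159 for DNA replication, -1.196 to -0.9256 for recombination, 0.295 to 0.6114 for snoRNA hosts, -0.3309 to -0.188 for cholesterol, 0.1362 to 0.2447 for lysosome, 0.2964 to 0.8058 for interferon-stimulated genes, 0.2232 to 0.6186 for immunoglobulin genes, -0.085 to 0.07676 for B-cell receptor, 0.1628 to 0.3417 for B-cell regulators, 0.1201 to 0.3837 for trafficking receptors, 0.3309 to 0.5563 for cytokines, 0.2296 to 0.6491 for the BCL2 family, -0.1019 to 0.03129 for p53 targets and -0.04856 to 0.1744 for integrins. MT-CO2 turned to -0.08162 with the length trend removed, -0.07968 with the block as well and -0.01449 without 3D_14d replicate 1 and the trend. CXCR3, not called, ran from -0.1836 to 0.0249 with each sample left out and was above 0 without 3D_7d replicate 1 (0.02449) or 3D_14d replicate 3.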
